A study of Mus musculus with 6 samples.

Results

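The endoplasmic reticulum (ER) folding and secretory genes are 38 genes listed by function, of which 37 were measured among 12393 genes. No threshold on their values chose them, but the list was drawn up with earlier results of these data known, so the direction of the set is not independent evidence. Their products import, fold, modify and inspect proteins that are destined for the membrane or for secretion. When unfolded proteins accumulate, the sensors Ern1 (IRE1), Eif2ak3 (PERK) and Atf6 start the unfolded protein response, which acts through the transcription factors Xbp1, Atf4 and cleaved Atf6 and raises the folding machinery. Plasma cells, the antibody-secreting end stage of B cells, run this machinery at a high level and depend on Xbp1 for it, whereas resting T cells secrete little and raise it when they become activated. Where a gene had several probe sets, the one with the highest mean of all 6 arrays stands for it. Sec61g shares its probe set with other genes and was not analysed here.

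The 6 arrays measured total RNA of mouse CD4+CD25+ cells, labelled as regulatory T cells. Both groups have the strain C57BL6. The first group (3 arrays) is labelled wild type. The knockout group (3 arrays) came from mice of the genotype fl-DNMT1/Foxp3cre, in which a floxed gene for the maintenance DNA methyltransferase Dnmt1 is recombined by Cre expressed from Foxp3, so in cells that have expressed Foxp3. No control with Cre or the floxed allele alone is among these samples, so effects of either cannot be told apart from the deletion. Age, sex and whether samples came from separate animals were not given in the sources used here. The p-values therefore rest on sample-to-sample spread that may be technical. All levels are log2 RMA expression, differences are knockout minus wild type, errors are SD over 3 arrays, and a gene was called at a limma adjusted p under 0.05 over all genes. The number of arrays limits the precision. On this platform Dnmt1 itself was at 9.56, 9.43 and 9.50 in wild type and 8.67, 8.89 and 9.34 in knockout replicates 1, 2 and 3 (limma adjusted p = 0.152). The position of its probe set relative to the deleted part was not given in the sources used here. T cell transcripts were present on each array, Cd3e at 11.09 to 11.47 and Cd4 at 8.92 to 9.37. Of 14 measured T cell and regulatory T cell markers 3 were called lower in the knockout (Nrp1, Ikzf2 and Il2ra). These calls numbered 0 without any of the 3 wild type arrays or without knockout replicate 3, and 1 with the replicate block or without knockout replicate 2. The list mean was 9.68 to 9.78 in wild type and 9.66, 9.38 and 9.22 in knockout replicates 1, 2 and 3. Of the 14 markers 1 had a higher mean in the knockout, beside 46.3% of all genes. For 7 markers all 3 knockout values lay below all 3 wild type values, beside 14.0% of all genes. Among these was Foxp3, at 9.47, 9.51 and 9.51 in wild type and 9.28, 8.82 and 8.43 in the knockout (-0.66, limma adjusted p = 0.142). In RNA of a mixed population, fewer cells of a type and less RNA per cell cannot be told apart.

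Many of these genes are known to be switched on together through a shared promoter element, the ER stress response element (ERSE), which is bound by NF-Y and Atf6 and reads CCAAT, then 9 bases of any kind, then CCACG. The stretches below are shown because, except for Herpud1, they hold that element in members of this set, with up to 30 bases on either side. They are printed on the strand of the gene, from RefSeq promoters of GRCm38.p6. Capitals mark the element, which reads CGTGG first where it lies on the other strand. Herpud1 has no ERSE in its window and is shown because it holds 2 other elements of the stress response, an ATF4 element and then an ERSE-II, which are described further on and marked by its capitals. The stretches are Derl3 at chr10:75893212-75893290, Creld2 at chr15:88819490-88819568, Dnajc3 at chr14:118937797-118937875 and Hspa5 at chr2:34771995-34772073. They continue with Hsp90b1 at chr10:86705503-86705686, Pdia6 at chr12:17266461-17266539, Calr at chr8:84847045-84847123, Canx at chr11:50325770-50325848 and Herpud1 at chr8:94386285-94386417. Of these genes Hsp90b1, Calr and Canx are on the minus strand and the others on the plus strand.
Derl3: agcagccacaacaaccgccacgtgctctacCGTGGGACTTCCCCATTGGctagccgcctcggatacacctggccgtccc
Creld2: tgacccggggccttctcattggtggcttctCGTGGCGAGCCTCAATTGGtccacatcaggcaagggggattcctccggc
Dnajc3: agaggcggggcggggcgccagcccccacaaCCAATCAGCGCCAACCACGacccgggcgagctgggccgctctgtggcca
Hspa5: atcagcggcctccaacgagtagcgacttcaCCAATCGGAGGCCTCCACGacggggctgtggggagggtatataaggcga
Hsp90b1: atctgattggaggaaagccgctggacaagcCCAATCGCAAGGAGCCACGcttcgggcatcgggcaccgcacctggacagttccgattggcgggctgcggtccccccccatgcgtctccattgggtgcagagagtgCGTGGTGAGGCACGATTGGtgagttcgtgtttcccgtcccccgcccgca
Pdia6: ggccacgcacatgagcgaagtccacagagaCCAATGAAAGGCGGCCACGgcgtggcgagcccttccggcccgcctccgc
Calr: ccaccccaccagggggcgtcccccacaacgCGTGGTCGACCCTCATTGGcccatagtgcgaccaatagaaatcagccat
Canx: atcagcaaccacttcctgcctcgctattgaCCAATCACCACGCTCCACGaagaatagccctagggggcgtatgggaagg
Herpud1: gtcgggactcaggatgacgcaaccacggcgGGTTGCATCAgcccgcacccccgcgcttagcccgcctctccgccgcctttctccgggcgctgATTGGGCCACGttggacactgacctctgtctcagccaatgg

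One member rose in the knockout and none fell. Creld2, which encodes a secreted ER protein induced by folding stress, was the 1 of 37 that passed (2.70%), where 1.33% of all genes were called higher. No member was called lower (0 of 37, and 0 at an unadjusted limma p under 0.05), beside 0.573% of all genes. In direction the members leaned to one side: 32 of 37 had a higher mean in the knockout (86.5%), as had 46.3% of all genes. For 15 members (40.5%) all 3 knockout values lay above all 3 wild type values, as they did for 11.0% of all genes. For 0 members did they all lie below, as they did for 14.0% of all genes. The median difference was 0.22 over the 37 members and -0.01 over all genes. At an unadjusted limma p under 0.05, 13 members (35.1%) were higher and 0 lower, beside 8.56% and 9.37% of all genes. These all-gene shares are the background for each unadjusted count that follows. The remaining 36 members did not pass the adjusted threshold, so their values are given without a call.

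**Figure D1:**
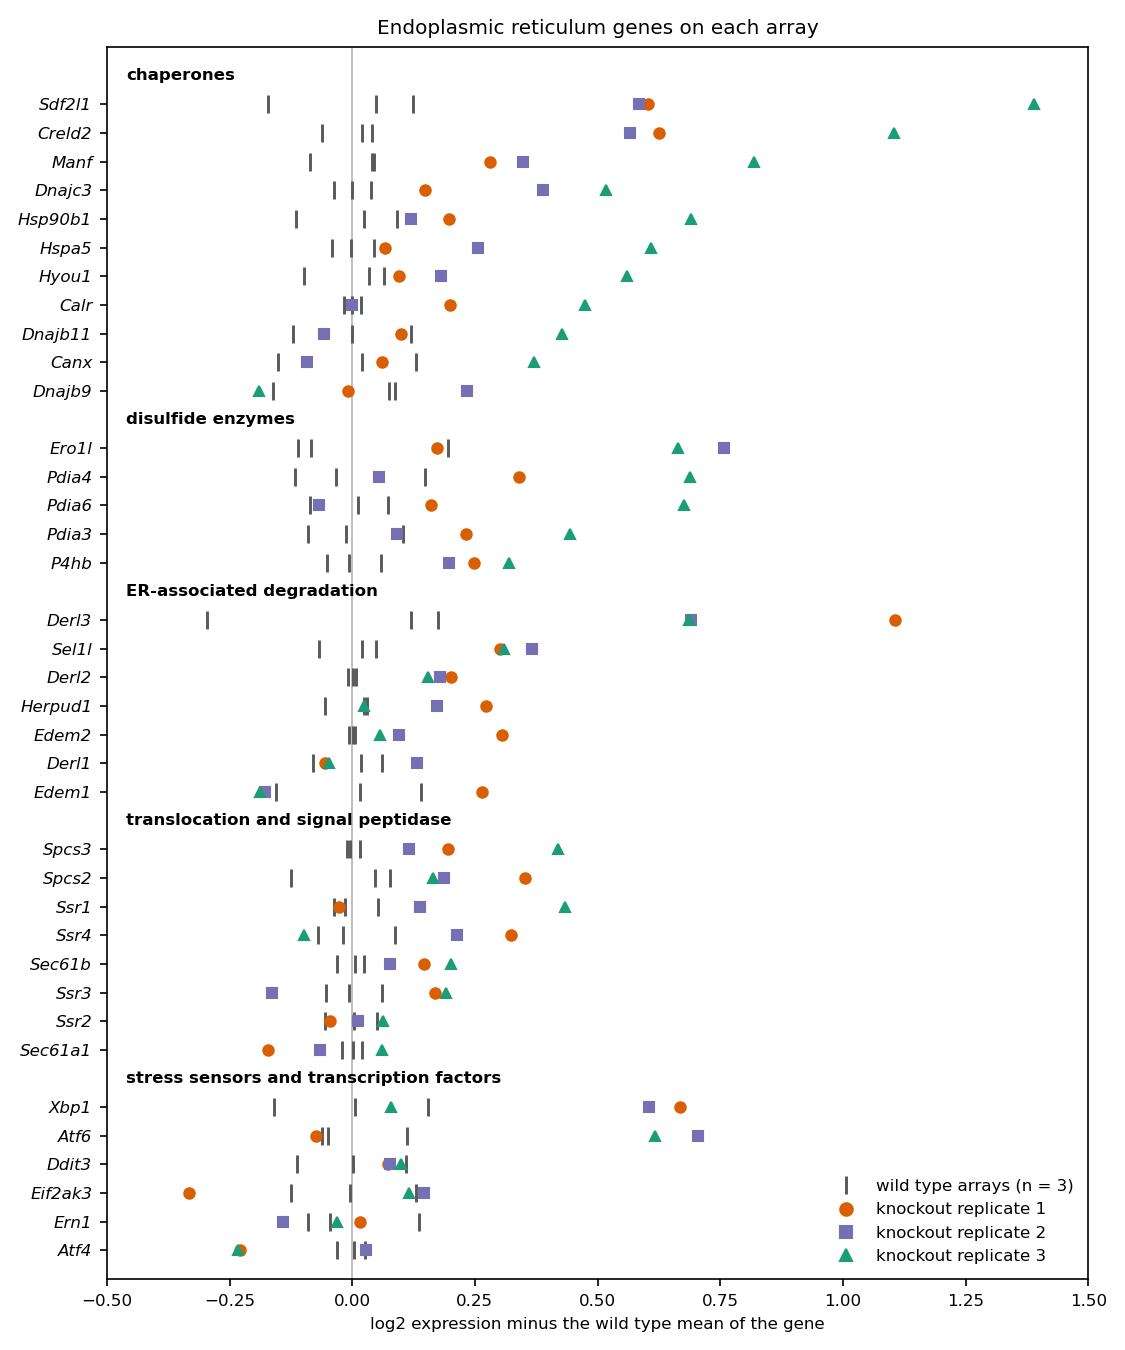
Each row is 1 gene and the horizontal axis is its log2 expression minus its own wild type mean. Grey ticks are the 3 wild type arrays and coloured symbols the 3 knockout replicates. Most chaperones and disulfide enzymes lie farthest to the right on knockout replicate 3, where Sdf2l1 reached 1.39, while Derl3 and Xbp1 lie farthest right on replicate 1.

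**Figure D2:**
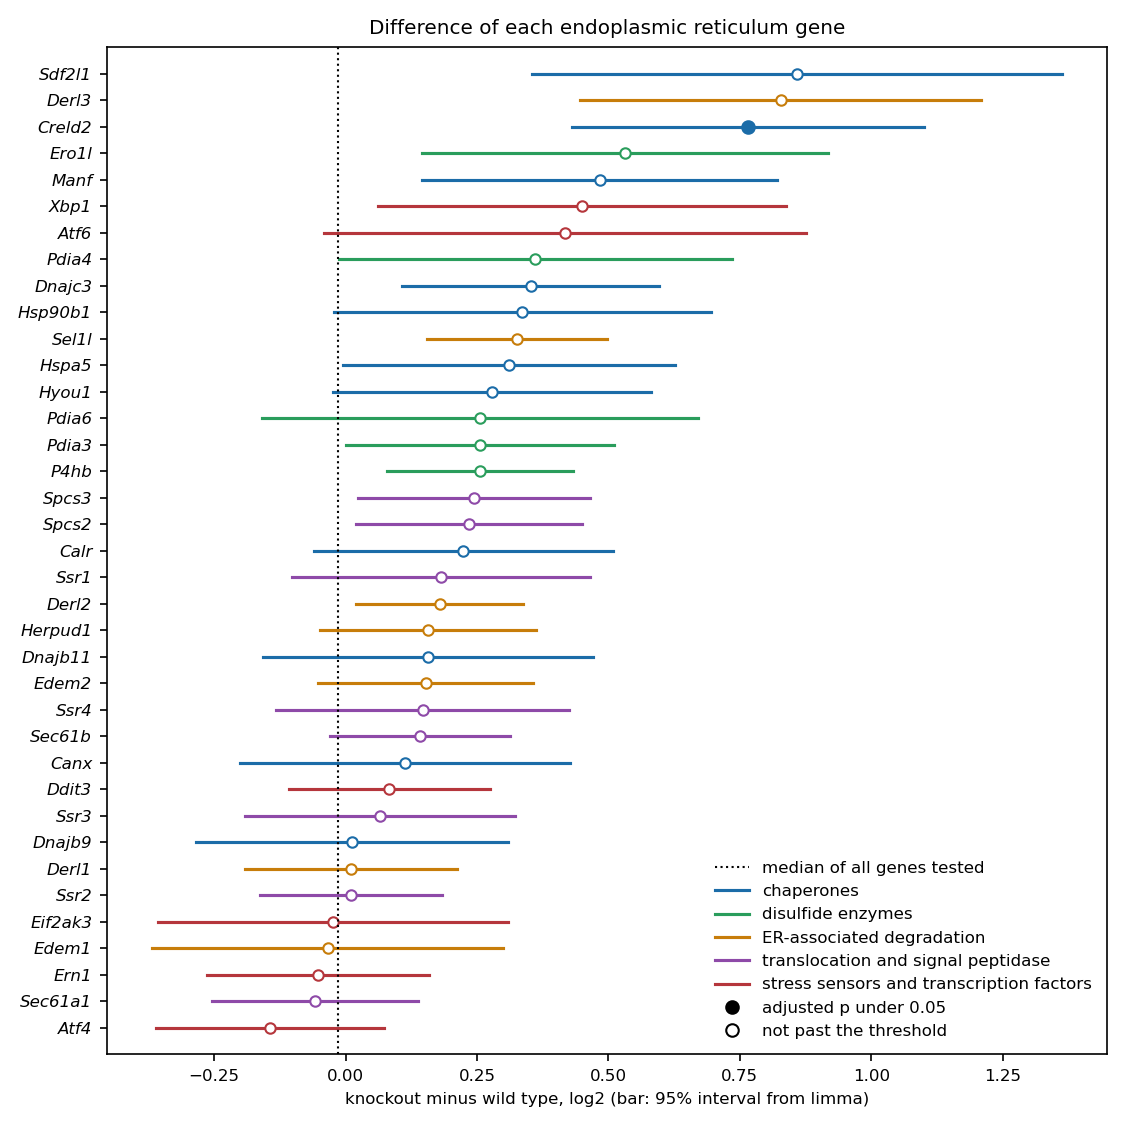
Each point is the knockout minus wild type difference of 1 gene on the log2 scale with its 95% interval from limma, ordered by size and coloured by role. Sdf2l1 (0.86), Derl3 (0.83) and Creld2 (0.77) stand at the top, Creld2 being the filled point that passed the adjusted threshold, and Atf4 (-0.14) at the bottom.

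All 11 chaperones and co-chaperones had a higher mean in the knockout, with a median difference of 0.31, and for 7 of them the groups did not overlap. Creld2 had values of 7.89, 7.99 and 7.97 in wild type and 8.57, 8.51 and 9.05 in knockout replicates 1, 2 and 3. All 3 knockout arrays were above the wild type arrays, and replicate 3 was the highest. The difference was 0.77 (SE 0.14, 1.70-fold, limma adjusted p = 0.0479). Leaving out any of the 3 wild type arrays ended the call (adjusted p = 0.163 to 0.182), and so did a replicate block (adjusted p = 0.0674). Over all alternatives the adjusted p lay between 0.0248 and 0.182. Without knockout replicate 3 the difference was 0.60 (adjusted p = 0.0433). Sdf2l1, which keeps misfolded clients soluble together with ER co-chaperones, had the largest difference of the set. It was at 8.05, 7.75 and 7.97 in wild type and 8.53, 8.51 and 9.31 in the knockout (difference 0.86, SE 0.22, 95% interval 0.36 to 1.36, limma adjusted p = 0.104). The groups did not overlap, and replicate 3 stood well above the other knockout arrays.

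Manf, a secreted cofactor of the chaperone BiP, was at 9.56, 9.55 and 9.43 in wild type and 9.79, 9.86 and 10.33 in the knockout (difference 0.48, SE 0.14, limma adjusted p = 0.148). Dnajc3, a co-chaperone that also restrains PERK, was at 9.77, 9.73 and 9.70 against 9.88, 10.12 and 10.25 (0.35, SE 0.10, adjusted p = 0.147). Both genes had groups that did not overlap. Hspa5, which encodes BiP, the main Hsp70 chaperone of the ER and its stress gauge, was at 12.05, 12.001 and 11.96 in wild type and 12.07, 12.26 and 12.61 in the knockout (0.31, SE 0.14, 95% interval -0.01 to 0.63, adjusted p = 0.287). Knockout replicate 1 was just above the wild type range and replicate 3 was the highest. Hsp90b1, the ER form of Hsp90 known as Grp94, went from 10.64, 10.71 and 10.50 to 10.81, 10.74 and 11.31 (0.34, SE 0.15, adjusted p = 0.306). Its groups did not overlap, though knockout replicate 2 lay close to the highest wild type array. Hyou1, a large chaperone that exchanges nucleotide on BiP, also had groups that did not overlap (8.71 ± 0.09 and 8.99 ± 0.25). The lectin chaperones Calr (10.80 ± 0.02 and 11.02 ± 0.24) and Canx (10.57 ± 0.14 and 10.69 ± 0.24) and the BiP co-chaperone Dnajb11 (8.88 ± 0.12 and 9.03 ± 0.25) overlapped between the groups. Dnajb9, a co-chaperone that is a known target of Xbp1, had a difference of 0.01 (95% interval -0.28 to 0.31), and it is the only chaperone of the 11 whose highest knockout value was not on replicate 3. Without that replicate the difference was 0.16 for Hspa5, 0.16 for Hsp90b1, 0.14 for Hyou1, 0.31 for Manf, 0.10 for Calr, 0.02 for Dnajb11 and -0.02 for Canx.

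The 5 enzymes of disulfide formation had a median difference of 0.26, with 0 called and 3 higher at an unadjusted limma p under 0.05. P4hb, the founding protein disulfide isomerase, was at 9.83, 9.77 and 9.72 in wild type and 10.02, 9.97 and 10.09 in the knockout. This was a small difference with little spread (0.26, SE 0.08, limma adjusted p = 0.146), and the groups did not overlap. Ero1l, listed as Ero1a in the platform's annotation, encodes the oxidase that recharges the isomerases. It was at 8.42, 8.11 and 8.14 in wild type and 8.39, 8.98 and 8.88 in the knockout (0.53, SE 0.17, adjusted p = 0.159). Knockout replicates 2 and 3 were above every wild type array while replicate 1 was inside their range, and without replicate 1 the difference was 0.71 (adjusted p = 0.0293). Pdia3, which works with calreticulin and calnexin on glycoproteins, had 10.67 ± 0.10 and 10.92 ± 0.18. Pdia4 had 8.99 ± 0.13 and 9.35 ± 0.32, and Pdia6 9.64 ± 0.08 and 9.90 ± 0.38. For these 3 isomerases the groups overlapped and replicate 3 was the highest array. Without it the difference was 0.16 for Pdia3, 0.20 for Pdia4 and 0.05 for Pdia6.

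Of the 7 genes of ER-associated degradation, which returns misfolded proteins to the cytosol, 0 were called, 3 were higher at an unadjusted limma p under 0.05 and the median difference was 0.16. Derl3, a derlin of the retrotranslocation machinery that is typical of secretory cells, was at 6.35, 6.82 and 6.77 in wild type and 7.75, 7.34 and 7.33 in the knockout. All knockout arrays were above the wild type arrays, with replicate 1 the highest. The difference was 0.83 (SE 0.16, 95% interval 0.45 to 1.21, limma adjusted p = 0.0554). It lies just outside the threshold, and under cyclic loess, trend and robust variance or a filter on dim genes it was inside (adjusted p = 0.0459, 0.0369 and 0.0460), with a range over the alternatives of 0.0369 to 0.176. Its relatives did not have differences of that size: Derl2 was at 8.67, 8.66 and 8.67 against 8.87, 8.84 and 8.82 (0.18, SE 0.07, adjusted p = 0.232), and Derl1 had a difference of 0.01 (95% interval -0.19 to 0.21). The 3 differences were not tested against each other. The dimmer probe sets of Derl1 had differences of 0.09, 0.27 and 0.02, with groups that did not overlap for 0.27. The dimmer probe set of Derl2 had -0.03. Sel1l, the scaffold of the Hrd1 ubiquitin ligase, was at 6.51, 6.60 and 6.62 in wild type and 6.88, 6.94 and 6.89 in the knockout. The knockout arrays were close together and above the wild type (0.33, SE 0.07, adjusted p = 0.0783). The mannosidase-like gene Edem2 had 8.05 ± 0.01 and 8.20 ± 0.13 with groups that did not overlap, while Edem1 (9.24 ± 0.15 and 9.20 ± 0.26) and Herpud1 (9.76 ± 0.05 and 9.91 ± 0.13) overlapped. Without knockout replicate 1 the difference of Edem2 was 0.08 in place of 0.15, and that of Herpud1 0.10 in place of 0.16.

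The 8 measured genes of translocation and signal peptide cleavage had a median difference of 0.14, with 0 called and 2 higher at an unadjusted limma p under 0.05. These were subunits of the signal peptidase. Spcs3 was at 9.39, 9.42 and 9.40 in wild type and 9.60, 9.52 and 9.82 in the knockout (0.24, SE 0.09, limma adjusted p = 0.240). Spcs2 was at 10.55, 10.38 and 10.58 against 10.86, 10.69 and 10.67 (0.23, SE 0.09, adjusted p = 0.244). Neither had overlapping groups. Among the subunits of the Sec61 channel, Sec61b also had groups that did not overlap (11.05 ± 0.03 and 11.19 ± 0.06), while the pore subunit Sec61a1 had 10.67 ± 0.02 and 10.61 ± 0.12, a difference of -0.06 (95% interval -0.25 to 0.14). The translocon-associated genes Ssr1, Ssr2, Ssr3 and Ssr4 had differences of 0.18, 0.01, 0.07 and 0.15 with overlapping groups. Without knockout replicate 3 the difference was 0.16 for Spcs3 and 0.055 for Ssr1, and without replicate 1 it was 0.06 for Ssr4.

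The 6 sensors and transcription factors had groups that overlapped in each case, a median difference of 0.03 and 0 calls, with 1 higher and 0 lower at an unadjusted limma p under 0.05. Xbp1, whose spliced mRNA encodes the factor that drives secretory expansion, was at 10.59, 10.90 and 10.75 in wild type and 11.41, 11.35 and 10.82 in the knockout. Replicates 1 and 2 were above each wild type array and replicate 3 was within their range (0.45, SE 0.17, adjusted p = 0.221). The values do not separate spliced from unspliced Xbp1. Atf6, the sensor that is cleaved into a transcription factor, was at 6.63, 6.80 and 6.64 in wild type and 6.61, 7.39 and 7.30 in the knockout (0.42, SE 0.20, adjusted p = 0.320). Here replicate 1 was below the wild type arrays and replicates 2 and 3 above them, and without replicate 1 the difference was 0.66 (adjusted p = 0.0179). The splicing sensor Ern1 was at 5.80, 5.58 and 5.62 against 5.68, 5.53 and 5.64 (-0.05, 95% interval -0.26 to 0.16). The kinase Eif2ak3 was at 8.22, 8.35 and 8.10 against 7.89, 8.37 and 8.34 (-0.02, 95% interval -0.36 to 0.31). Below it in the PERK branch, Atf4 was at 10.36, 10.38 and 10.32 against 10.12, 10.38 and 10.12 (-0.14, 95% interval -0.36 to 0.07). Its target Ddit3, encoding the pro-apoptotic factor CHOP, was at 7.95, 7.73 and 7.85 against 7.92, 7.92 and 7.94 (0.08, 95% interval -0.11 to 0.27). These are transcript levels, and the activity of the sensors was not measured.

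The members had 44 other probe sets, which covered 22 of the genes. Of these, 38 had a positive difference, with a median of 0.17, and 34 had the sign of the brighter probe set. One passed limma over all probe sets, where 1.19% of probe sets were called higher, and 0 were called lower (0 also at an unadjusted p under 0.05). It was a second probe set of the translocon gene Ssr1, at 7.73, 7.81 and 7.75 in wild type and 8.31, 8.49 and 8.16 in the knockout (0.56, SE 0.10, adjusted p = 0.0424), where the brightest had 9.51, 9.60 and 9.53 against 9.52, 9.69 and 9.98. The highest array is knockout replicate 2 on the former and replicate 3 on the latter. With a wild type array or knockout replicate 2 left out, 0 of the further probe sets were called. For Ero1l the next probe set had 7.30 ± 0.14 and 8.03 ± 0.29 with groups that did not overlap (adjusted p = 0.0676). For Sel1l 1 of the 3 other probe sets had 4.67 ± 0.04 and 5.03 ± 0.04 (adjusted p = 0.0662), and the others had differences of 0.03 and 0.00. The 3 other probe sets of Xbp1 had differences of 0.16, 0.33 and 0.38. The dimmer probe sets of Ern1 had differences of 0.17 and 0.28, with a sign opposite to the brightest. Among the 10 probe sets with an opposite sign were also 1 of Derl2 (-0.03) and 1 of Dnajc3 (-0.01). The dimmer probe sets of Hspa5 and Hsp90b1 had differences of 0.22 and 0.36 with overlapping groups, unlike the brightest. For the dimmer probe sets of Dnajc3 the groups overlapped at differences of -0.01, 0.20 and 0.21 and did not at 0.19.

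The knockout arrays did not carry the set evenly, and the roles differed in which array was highest. Replicate 3 was the highest knockout array for 10 of 11 chaperones, 4 of 5 disulfide enzymes and 6 of 8 translocation genes, and for 0 of 7 degradation genes, of which 5 were highest on replicate 1. Over all genes replicate 3 was highest for 30.3% and replicate 1 for 36.4%. The median deviation of the chaperones from the wild type mean was 0.15, 0.23 and 0.56 on knockout replicates 1, 2 and 3, and that of the disulfide enzymes 0.23, 0.09 and 0.66. For the degradation genes these values were 0.27, 0.17 and 0.06. Without replicate 3 the median difference of the chaperones was 0.16 in place of 0.31, and that of all 37 members was 0.16. When that replicate was left out, 7 of 11 chaperones had both remaining knockout values above the wild type range. So had 18 of 37 members (48.6%), beside 15.2% of all genes. Groups that do not overlap stay separate when an array is left out, so these counts could only stay or rise. The translocation genes had a median of 0.08 without replicate 3 (0.10 without replicate 1), in place of 0.14. The degradation genes had 0.10 without replicate 1 in place of 0.16. The disulfide enzymes had 0.20 without replicate 3 and 0.42 without replicate 2, in place of 0.26. The sensors and factors had 0.11 without replicate 1 and 0.01 without replicate 3.

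Markers of other cells and of cell division had their own order of the knockout arrays, and the members of the set were spread over several orders. Whether members followed a list was not tested. Of 20 measured proliferation markers, 17 were highest on replicate 3, then 1, then 2. This order was that of 13 of 37 members, beside 16.4% of all genes. Among the 13 were Creld2, Sdf2l1, Hsp90b1, Calr, Canx, P4hb, Pdia3, Pdia4 and Pdia6. Another 8 members, beside 13.9% of all genes, had the order 3, then 2, then 1, among them Hspa5, Hyou1, Dnajc3 and Manf. That order was held by 3 proliferation, 1 plasma cell and 0 neutrophil markers. The proliferation list had a mean of 8.16 to 8.39 in wild type and 8.25, 8.12 and 8.91 in knockout replicates 1, 2 and 3, with 0 markers called and 0 at an unadjusted limma p under 0.05. Of 12 measured plasma cell markers, 6 were highest on replicate 1, then 2, then 3. So were 8 of 37 members, beside 16.5% of all genes: Xbp1, Derl2, Derl3, Edem1, Edem2, Herpud1, Ssr4 and Spcs2. The 6 markers include Irf4, whose mean was lower in the knockout, and Ighg3, with replicates 2 and 3 both at 8.95. Igha and Prdm1, the 2 markers that were called, did not have this order. The plasma cell list had means of 8.49 to 8.73 in wild type and 9.26, 8.96 and 8.65 in the knockout. Its members include Txndc5 and Fkbp11, which are ER genes, and Prdm1, Irf4 and Slamf7, which T cells also express. Of the 12, 2 rose: the IgA heavy chain gene Igha (12.14, 11.18 and 12.41 against 14.47, 13.67 and 13.80, limma adjusted p = 0.0303) and Prdm1, encoding Blimp1 (7.36, 7.36 and 7.35 against 7.71, 7.85 and 7.87, adjusted p = 0.0379). Leaving out any 1 wild type array, or knockout replicate 3, ended both calls. That of Igha was also lost with trend and robust variance (adjusted p = 0.0836), and that of Prdm1 with the replicate block (adjusted p = 0.0940) and without knockout replicate 2 (adjusted p = 0.0751). The joining chain gene Jchain was at 12.03, 12.40 and 12.34 against 13.10, 12.77 and 11.98, the surface marker gene Sdc1 at 5.78, 6.33 and 6.02 against 6.78, 6.30 and 5.92, and the plasma cell receptor gene Tnfrsf17 at 4.56, 4.47 and 4.64 against 6.03, 5.02 and 4.54. Only replicates 1 and 2 were above wild type for Jchain and Tnfrsf17, and only replicate 1 for Sdc1. By sign, 8 of the 12 differences were positive and 4 negative. The negative ones were Pou2af1 (-0.23), Fkbp11 (-0.16), Irf4 (-0.12) and Ighg3 (-0.12), each with overlapping groups. Among the positive ones, Ighm averaged 14.13 in either group, a difference of 0.003. Of 15 measured B cell markers 0 were called and 1 was lower at an unadjusted limma p under 0.05, with list means of 7.09 to 8.17 in wild type and 6.94 to 7.67 in the knockout.

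Each of the 17 neutrophil markers measured had a higher mean in the knockout, and 9 passed the test. That number was 1 with trend and robust variance, 0 or 1 without a wild type array and 4 without knockout replicate 3. Their list mean was 5.93 to 6.23 in wild type and 7.69, 9.59 and 8.31 in the knockout, and 16 of the 17 were highest on replicate 2, then 3, then 1. This order was that of 5 of 37 members, a smaller share than the 18.8% of all genes: Ero1l, Atf6, Sel1l, Derl1 and Eif2ak3. Of these, Derl1 and Eif2ak3 had differences of 0.01 and -0.02. The monocyte and macrophage list (19 measured, 2 called higher) had means of 5.22 to 5.77 and 6.20 to 6.30, and the list of natural killer (NK) and cytotoxic cells (15 measured, 3 called higher and 2 lower) 7.56 to 7.72 and 7.57 to 8.20. Without a wild type array 0 or 1 marker of either list was called higher. Of the 19 monocyte and macrophage markers 18 had a higher mean in the knockout. At an unadjusted limma p under 0.05, 10 of them were higher and 0 lower. Of the NK and cytotoxic markers 7 were higher and 4 lower at that p. Of 10 measured dendritic cell markers 0 were called and 2 were higher at an unadjusted limma p under 0.05, and their means were 6.36 to 6.66 and 6.38 to 6.76. The part of these cells and of cell division in the differences of the ER genes was not tested.

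**Figure D3:**
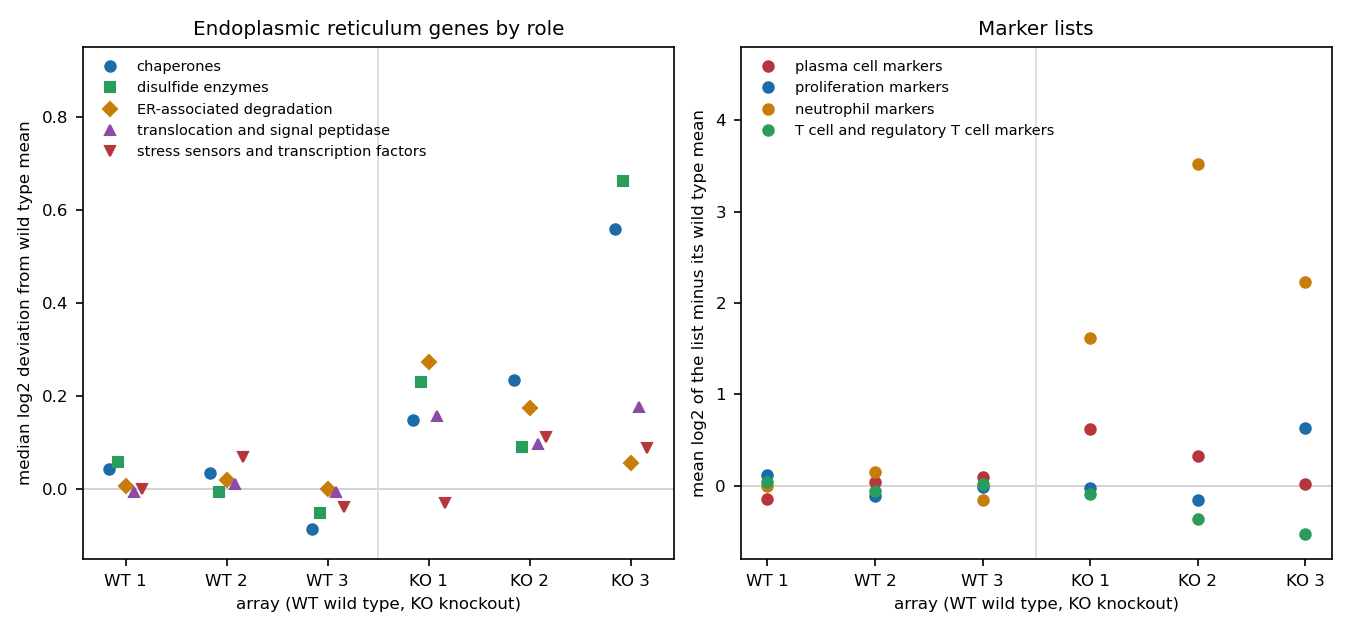
The left panel gives, for each array, the median over the genes of a role of the log2 value minus the wild type mean of the gene. The right panel gives the mean log2 value of 4 marker lists minus the wild type mean of that list. Chaperones and disulfide enzymes are highest on knockout replicate 3 (0.56 and 0.66), as are the proliferation markers, whereas the degradation genes (0.27) and the plasma cell markers are highest on replicate 1.

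The promoter table held 31 of the 38 members, each with 250 bases before and 50 after an annotated start, and both strands were searched. The ERSE was found in 8 members (25.8%), printed above, and in 0.137% of 27025 genes with a promoter there. All 8 had a higher mean in the knockout. On the brightest probe sets 5 had groups that did not overlap, namely Derl3, Creld2, Dnajc3, Hsp90b1 and Hspa5. Their median difference was 0.32, with a range of 0.11 for Canx to 0.83 for Derl3. The 22 measured members without a match in that window had a median of 0.16, and the 7 measured members with no promoter to search had 0.24. The former ranged from -0.14 for Atf4 to 0.86 for Sdf2l1, and 18 of them had a positive difference. The element is thus present in members of unlike size of difference, and 10 measured genes outside the set that also hold it had a median difference of -0.02, with 3 positive and 0 called (0 higher and 1 lower at an unadjusted limma p under 0.05). The shorter ERSE-II, ATTGG, 1 base of any kind and CCACG, was found in Herpud1 at positions -52 to -42 from the start and in Dnajb11 at positions 8 to 18, and in 0.0444% of genes. The 6 measured genes outside the set that hold it had a median difference of 0.17, with 4 positive, 2 of them with groups that did not overlap, and 0 called (2 higher and 1 lower at an unadjusted limma p under 0.05). The ERSE-II shares CCACG with the ERSE and holds CCAAT on the other strand, but the matches of different motifs did not overlap in any member. The Xbp1 site TGACGTGG was found in 0 members and in 0.714% of genes. An element bound by Atf4 with C/EBP partners, TGATG, any base, AA, any base and C, was found in Herpud1 alone and in 1.20% of genes. A match is a description of letters and no evidence of binding.

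**Figure D4:**
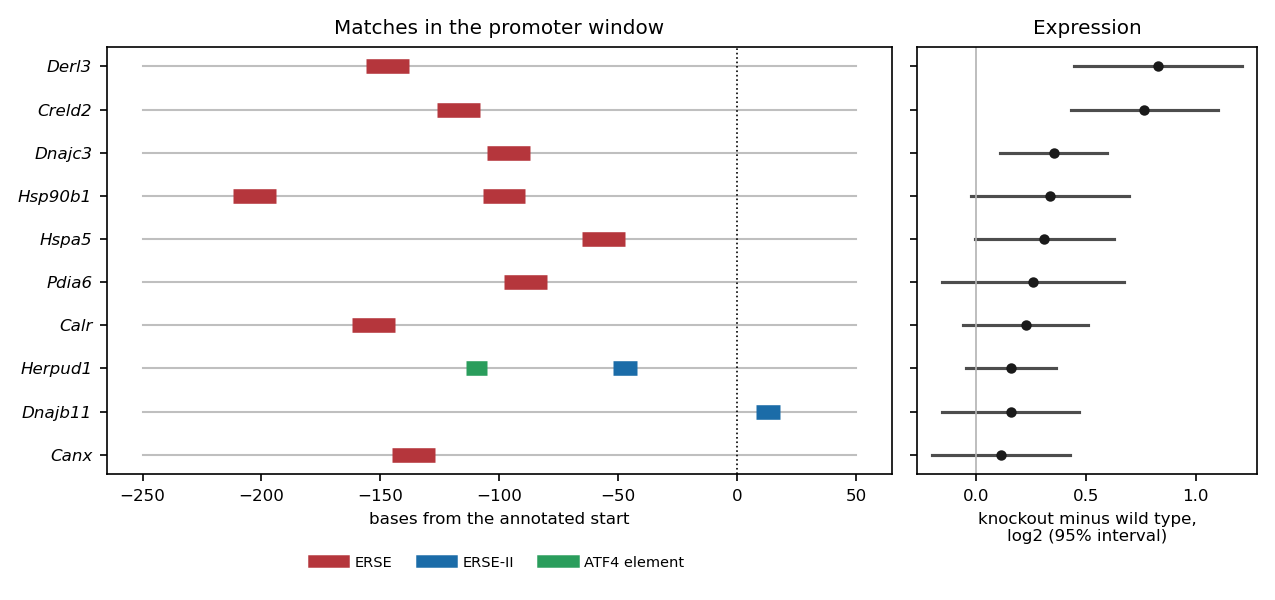
Left, the position of each match in the promoter windows of the 10 members that hold one, in bases from the annotated start (0), with members ordered by their difference. Right, the knockout minus wild type difference of each on the log2 scale with its 95% interval, from 0.83 for Derl3 to 0.11 for Canx.

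Beyond the set, 6 lists of other genes of the pathway were read in the same fit, with 114 of 128 genes measured. Of these, 0 were called higher (14 at an unadjusted limma p under 0.05) and 1 lower (5 unadjusted), where 8.56% of all genes were higher and 9.37% lower at that p, and their median difference was 0.02, with 65 positive and 49 negative. The gene called lower was Ppp1r15a, encoding Gadd34, the phosphatase subunit that reverses the PERK signal by dephosphorylating eIF2alpha. It was at 10.37, 10.37 and 10.29 in wild type and 9.70, 9.83 and 9.42 in the knockout, so all knockout arrays were below. It fell by 0.70 on the log2 scale (SE 0.11, limma adjusted p = 0.0298). Leaving out any of the 3 wild type arrays ended this call (adjusted p = 0.130 to 0.135), with a range over the alternatives of 0.0150 to 0.135. In the same list of 14 measured stress regulators 7 had a positive and 7 a negative difference.

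Among 24 measured targets of Atf4, 0 were called, and 4 were higher and 2 lower at an unadjusted limma p under 0.05. The lowest p-values pointed in opposite directions. Stc2, a secreted glycoprotein gene, was at 4.81, 5.38 and 5.22 against 5.96, 6.31 and 5.71 (adjusted p = 0.0744). Cebpg, a partner of Atf4, was at 7.33, 7.21 and 7.08 against 6.81, 6.63 and 6.78 (adjusted p = 0.0635). Both depended on the probe sets used. With means of probe sets the difference was 1.31 for Stc2 (limma adjusted p = 0.00919) and -0.20 for Cebpg (adjusted p = 0.319). Among 22 measured genes of ER to Golgi transport, 11 had a positive and 11 a negative difference and 0 were called (4 higher and 0 lower at an unadjusted limma p under 0.05). The cargo adaptor gene Sec24d was at 6.92, 6.84 and 6.97 against 7.17, 7.75 and 7.71 (adjusted p = 0.0990), and Mcfd2, the partner of the cargo receptor Lman1, had 8.12 ± 0.02 and 8.42 ± 0.06 (adjusted p = 0.104). For these the groups did not overlap.

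In the other 3 lists more genes had a positive than a negative difference. Of 21 measured translocation, signal peptidase and glycosyltransferase genes 14 had a positive difference (median 0.04). The signal peptidase genes Sec11c (9.96 ± 0.11 and 10.25 ± 0.08) and Sec11a (10.59 ± 0.03 and 10.78 ± 0.09) had the lowest p-values there, with limma adjusted p = 0.159 and 0.278. Of 18 measured folding and glycan processing genes 10 had a positive difference (median 0.07), with Fkbp2 (8.54 ± 0.04 and 8.85 ± 0.19) and the reductase gene Dnajc10 (8.28 ± 0.01 and 8.53 ± 0.12) at adjusted p = 0.189 and 0.196. Of 15 further degradation genes 10 had a positive difference (median 0.03), with Ubxn4 (9.09 ± 0.10 and 9.30 ± 0.07) and Selenos (9.83 ± 0.14 and 10.08 ± 0.19) at adjusted p = 0.267 and 0.332. These lists had 0 calls, with 2, 2 and 1 genes higher and 0 lower at an unadjusted limma p under 0.05.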

How the data were processed

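Total RNA of 3 wild type and 3 knockout samples was hybridised to single-colour arrays. The deposited log2 values were made by the authors with RMA, per the submitters' processing notes, with version and settings not given in the sources used here. This method equalises the arrays, so a change in total RNA is lost, and it narrows differences of dim probe sets. The 22690 probe sets were named from the platform annotation: 20380 had 1 symbol, 691 several, 1555 none, and 64 were controls. Array medians were 5.69 to 5.77. Pearson correlations across probe sets were 0.996 to 0.997 within wild type, 0.991 to 0.993 within knockout and 0.984 to 0.992 between groups.

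The comparison used lmFit and eBayes of limma 3.58.1 in R 4.3.3, with no filter, over 12393 genes by their brightest probe set. Benjamini-Hochberg adjustment was over all genes, or over all probe sets for further probe sets, and tests are two-sided. The fit was tested on simulated data. Members and lists were chosen with earlier results of these data known. Values on each array are given for members that were called, for up to 12 members whose groups did not overlap and for Ern1, Eif2ak3, Atf6, Xbp1, Hspa5, Atf4 and Ddit3, and for the called genes of each other list (up to 6) or its 2 lowest p. Ero1l, Jchain, Sdc1, Tnfrsf17, Irf4, Pou2af1, Fkbp11, Ighg3, Ighm, Cd3e, Cd4, Foxp3 and the further probe sets described were chosen after their values were seen. Alternatives were 3 normalisations, a filter on the dimmest 40% of genes, means of probe sets, a replicate block, array weights, trended and robust variance, and leaving out each array. Promoters came from a RefSeq table of GRCm38.p6. Protein sequences were not used here. Python 3.11.15 and matplotlib 3.10.9 made the tables and plots.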

Additional observations from a re-analysis of the deposited data

How the results depend on the processing

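The count of members called higher (1) was 2 under cyclic loess, 3 without the dimmest 40% of genes, 2 with trend and robust variance, 0 with the replicate block, and 0 to 4 with an array left out (0 without any of the wild type arrays, 4 without knockout replicate 1). Over all genes 236 were called, 343 with array weights, 147 with the replicate block and 21 to 544 with an array left out. The count of members called lower was 0 in these settings. Other pathway genes called higher (0) were 2 with means of probe sets and 0 to 2 with an array left out, and those called lower (1) were 2 without dim genes and 0 to 1 with an array left out. Further probe sets of members called higher (1) were 2 with array weights, 2 with trend and robust variance, 0 with the replicate block and 0 to 1 with an array left out. The median difference stayed between 0.16 and 0.28. Same-numbered arrays had correlated deviations of -0.08, 0.15 and -0.04, so the numbers were not taken as pairs, and 1 of 3 numbers correlated best with itself. The cause of these shifts was not tested. With 1 array left out, arms of 2 have fewer samples.

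Sign changes were seen in 7 members, none of them called. Dnajb9 was at -0.0154 with median centring, -0.0262 with array weights and -0.0994 to 0.113 with an array left out. Derl1 was at -0.0171, -0.0018 and -0.0506 to 0.0427 in these settings, and Ssr2 at -0.0172 with median centring and -0.0173 to 0.0377 with an array left out. Canx ranged over -0.016 to 0.215 with an array left out, negative without knockout replicate 3. Edem1 was at 0.0163 with cyclic loess and -0.184 to 0.0428 with an array left out. Ern1 was at 0.135 with means of probe sets and -0.097 to 0.0154 with an array left out. Eif2ak3 was at 0.0291 with cyclic loess, 0.0262 with means of probe sets, 0.0052 with array weights and -0.109 to 0.131 with an array left out.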
